A study of Homo sapiens with 4 samples.

Results

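The response of Li-7 cells to a miR-4730 mimic was measured as the difference between 2 arrays, 1 from cells given the mimic and 1 from cells given a negative control. All probe sets with 1 gene name entered the comparison, which gave differences for 17687 genes, the same 17687 genes that the series measured on its 4 arrays. Li-7 is an established human liver cancer line, grown here in RPMI-1640 with fetal bovine serum. The mimic was transfected at 3 nM with a lipid reagent 24 h after seeding, and the negative control oligonucleotide, which the labels also call a vector, came from the same supplier. The labels give no genetic change in either group, and the time from transfection to RNA extraction is among the details not given in the sources used here. A further pair of arrays held the same treatments of HEP-G2, a second liver cancer line, grown in DMEM. With 1 array a group there was no replicate and no test, so every value below is a level on a single array or a difference between single arrays.

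MicroRNAs are short RNAs that guide Argonaute proteins to messenger RNAs, mostly by pairing of their seed bases with sites in the message's 3' untranslated region, and paired messages are translated less and broken down faster. A mimic is a synthetic duplex that is loaded in the same way and so raises the activity of a chosen microRNA. HMGA1, the gene the study is built around, encodes a small chromatin protein that binds AT-rich DNA, is abundant in embryonic cells and is expressed again in many carcinomas.

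The sequence given to the cells decides which messages can pair with it, so it is shown first, as RefSeq gives it (GRCh38.p14, chr17:80419427-80419449, plus strand). Capitals mark the seed, bases 2 to 8. It is followed by the 1 other human mature microRNA of 2370 in the RefSeq table that shares bases 2 to 7, marked in capitals there.
miR-4730: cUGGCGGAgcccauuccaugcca
miR-6770-3p: cUGGCGGcugugucuucacag
No other listed mature microRNA shared the full seed of miR-4730. A message site that pairs with the whole seed reads UCCGCCA. Sites in messages were not searched, since no transcript sequences were used here, and the host gene of miR-4730 is not among the genes analysed.

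The identity of the Li-7 arrays was checked on 14 liver and epithelial markers, of which 12 were measured. The limit used throughout is the 95th percentile among an array's negative control probe sets, 8.72 on the control array and 7.99 on the mimic array, in units of the deposited log2-like scale. Epithelial genes were bright. KRT8 stood at 17.12 on the control and 17.05 on the mimic array, KRT18 at 16.51 and 16.37, and EPCAM at 15.13 and 14.59. The markers of secreted liver proteins were not above the limit on the control array. ALB, albumin, stood at 7.30 and 7.19, and AFP, alpha-fetoprotein, at 4.75 and 3.92. In HEP-G2 the control values of these genes were 12.46 and 16.71. APOH, an apolipoprotein, stood at 8.31 and 8.86 and SERPINA1, alpha-1-antitrypsin, at 6.65 and 8.404, both above the limit on the mimic array alone. The markers therefore showed an epithelial line, in which albumin and alpha-fetoprotein were within the range of the background. Of 25 measured markers of blood, endothelial and stromal cells, 3 were above the limit on both Li-7 arrays. They were LYZ, lysozyme, at 13.47 and 12.09, CD68 at 9.91 and 9.29, and LUM, lumican, at 8.75 and 9.26. The values of all 25 ran from 3.13 to 13.47 on the control and from 2.84 to 12.09 on the mimic array, with sums of 140.6 and 141.7, and their part in the results was not tested.

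Both Li-7 arrays had a median of 7.17 over 24351 probe sets. Of the 17687 genes, 12381 had a mean over the 4 arrays of at least 4.90, the 30th percentile, and were kept. The control array had 6494 genes above its limit (36.7%) and the mimic array 7557 (42.7%), and 6431 kept genes were above it on both. The difference in these counts goes with the lower limit on the mimic array.

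With the mimic, 461 of the genes kept were higher by 2-fold or more in Li-7, 3.72%, and 510 were lower by 2-fold or more, 4.12%. The median difference was 0.02 and the quartiles were -0.30 and 0.35. Among the 6431 genes above the limit on both arrays, 193 were higher (3.0%) and 299 lower (4.65%) by 2-fold or more. Of the 461 higher genes, 132 were above the limit on the mimic array alone and 136 on neither. Of the 510 lower genes, 56 were above it on the control array alone and 155 on neither. These counts follow the limits, since among all genes kept 1126 were above the limit on the mimic array alone and 63 on the control array alone.

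Negative control probe sets, recognised by their names alone, set the scale for these counts. Of 612 negative control probe sets, 81 were higher (13.2%) and 87 lower (14.2%) by 2-fold or more, larger shares than among genes. The SD of their differences was 1.20, against 0.58 for the genes kept. This held at every level. At a mean value up to 6, 23.9% of 522 negative control probe sets were past 2-fold in either direction against 4.79% of genes, and above 10 it was 46.2% of 13 against 7.26%. Other controls were steadier. Of 2197 positive control probe sets 1.14% were at least 2-fold higher and 1.78% lower, and of 63 spike-in probe sets 0 were past 2-fold, with an SD of 0.18. A 2-fold difference of a single gene on these arrays is therefore within what the negative control probe sets showed. The account below rests on both values of each gene, on its place against the limit and on groups of genes. The groups are lists chosen with earlier results of these data known, so their shares are descriptions and not tests.

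**Figure D1:**
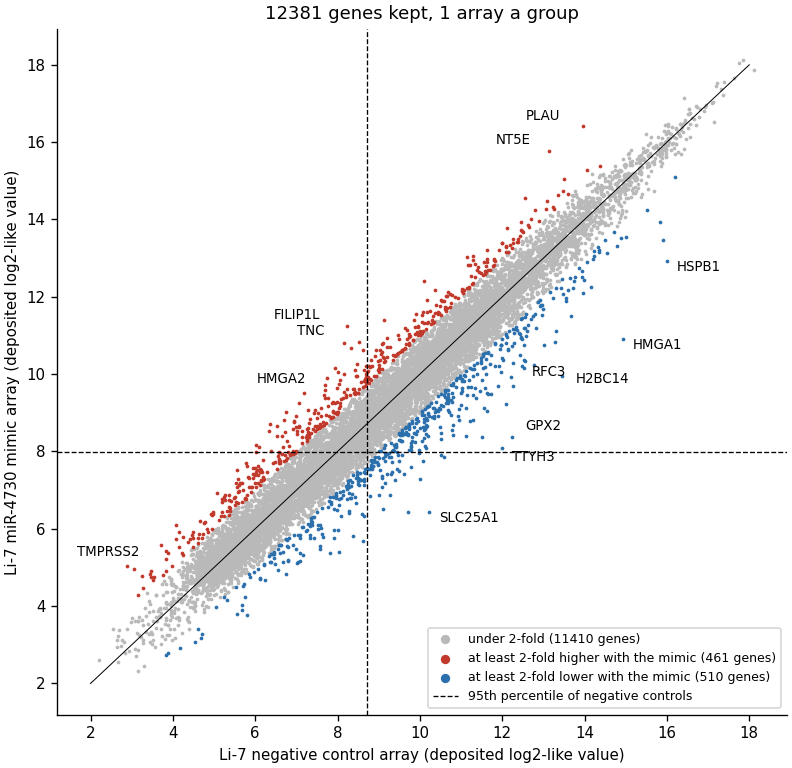
Each point is 1 of 12381 genes kept, with its deposited log2-like value on the Li-7 negative control array (x axis) and on the Li-7 miR-4730 mimic array (y axis). Red points are the 461 genes higher and blue points the 510 lower by 2-fold or more with the mimic, dashed lines are the limits of the arrays (8.72 and 7.99), and HMGA1 at 14.93 and 10.91 lies farthest below the diagonal.

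**Figure D2:**
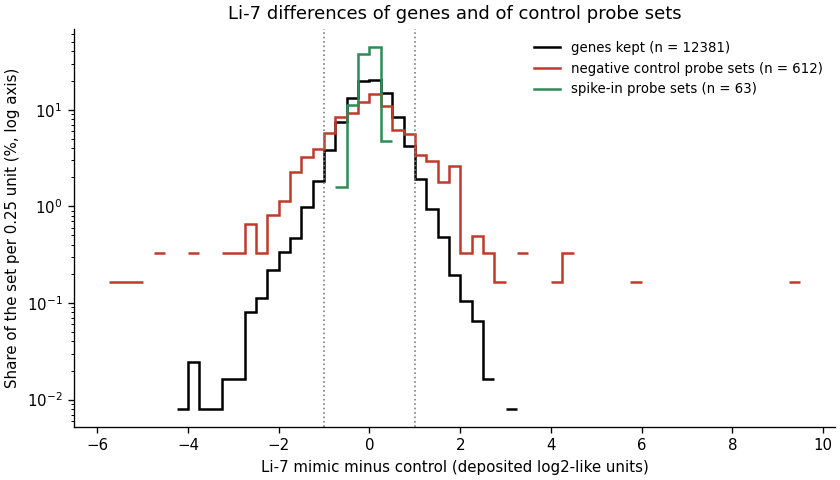
The share of each set (y axis, log scale, in percent per 0.25 unit) is plotted against the Li-7 difference, mimic minus control (x axis, deposited log2-like units), for genes kept, negative control probe sets and spike-in probe sets. Dotted lines mark 2-fold, past which lie 27.5% of the negative control probe sets, 7.84% of the genes and 0 of the spike-ins.

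HMGA1 had the lowest difference of all genes kept. It stood at 14.93 on the control array and at 10.91 on the mimic array, a difference of -4.02 or 16.2-fold, and its mimic value was still above the limit of 7.99. Differences of that size downward were seen in 5 of 612 negative control probe sets and 5 showed one upward, against 0 of 2197 positive control probe sets in either direction. The related HMGA2, a chromatin protein of embryonic and transformed cells that is itself a known microRNA target, stood at 7.74 and 9.89, from under to above the limit. Its difference of 2.15 was the opposite in sign to that of HMGA1. HMGN2, a nucleosome-binding member of the wider family, stood at 14.86 and 14.03. Of 10 kept high mobility group genes 1 was at least 2-fold higher and 1 lower, and the median was -0.33. Each is a share of 10.0%, against 3.72% higher and 4.12% lower of all genes.

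The other genes at the low end came from many cellular roles. TTYH3, a chloride channel family member of the plasma membrane, stood at 11.99 and 8.09, a difference of -3.90. GPX2, a glutathione peroxidase of gut and liver epithelium, stood at 12.25 and 8.37 (-3.87). SLC25A1, which exports citrate from mitochondria for fatty acid synthesis, stood at 10.22 and 6.45 (-3.77), the latter under the limit. All 3 were bright or well above the limit on the control array and lost most of that signal on the mimic array. H2BC14, a histone H2B gene with close copies in the genome, stood at 13.45 and 9.95 (-3.50). CLN6, a membrane protein of the endoplasmic reticulum that is lost in a neuronal storage disease, stood at 11.51 and 8.36 (-3.15). HSPB1, a small heat shock protein that stabilises actin, stood at 15.999 and 12.92 (-3.08), so it was still among the bright genes with the mimic.

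Lower values within the same 25 genes included enzymes, signalling proteins and a peptide hormone. GNPDA1, which turns glucosamine phosphate back to fructose phosphate, stood at 9.71 and 6.43 (-3.27), and ASNS, asparagine synthetase, at 10.59 and 7.85 (-2.75). GAL, the neuropeptide galanin, stood at 10.01 and 7.28 (-2.73). BCKDK, the kinase that restrains breakdown of branched-chain amino acids, stood at 9.11 and 6.52 (-2.59). These 4 were above the limit on the control array only. CNN2, an actin-binding calponin, stood at 12.09 and 9.22 (-2.87), ATP5F1D, a subunit of ATP synthase, at 11.11 and 8.41 (-2.70), and RAB2A, a small GTPase of the early secretory pathway, at 13.29 and 10.83 (-2.46). HCFC1, a chromatin-bound cofactor of cell growth, stood at 11.21 and 8.78 (-2.42). Of the 25 lowest genes, 15 were above the limit on both arrays, 6 on the control array alone and 4 (REG4, NPRL3, VPS37B and KCNQ3) on neither.

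Components of ERK signalling and of the nuclear envelope were also at the low end. ARAF, a RAF kinase, stood at 12.78 and 10.24 (-2.54) and MAPK3, the kinase ERK1, at 11.91 and 9.70 (-2.21). They were the 2 of 19 kept genes of RAF and ERK signalling that were at least 2-fold lower (10.5%, against 4.12% of all genes). The median of that list was 0.18. POM121 stood at 12.25 and 9.69 (-2.56) and POM121C at 13.30 and 11.10 (-2.20). These encode near-identical ring proteins of the nuclear pore whose probes may not tell them apart. The other 27 of 29 kept nuclear pore and transport genes were within 2-fold, so 6.9% were at least 2-fold lower, against 4.12% of all genes.

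At the high end the largest difference was that of FILIP1L, a filamin-interacting protein linked to slower cell migration, which stood at 8.23 and 11.24, a difference of 3.01. NT5E, the surface enzyme CD73 that makes adenosine, stood at 13.13 and 15.78 (2.65), and PLAU, the protease urokinase, at 13.95 and 16.41 (2.46). The latter pair was bright on both arrays. ARRDC3, an arrestin-domain protein that restrains glucose uptake and receptor signalling, stood at 10.10 and 12.41 (2.32). ETS1, a transcription factor of invasion and vessel growth, stood at 9.12 and 11.39 (2.27), and CAPRIN2, an RNA-binding protein, at 12.56 and 14.56 (1.99). Of the 25 highest genes these 5 (NT5E, PLAU, ARRDC3, ETS1 and CAPRIN2) were above the limit on both arrays, 18 on the mimic array alone and 2 (TMPRSS2 and ACVR2B) on neither. TNC, tenascin C (8.15 and 10.80), TP53INP1, a p53-induced stress protein (6.36 and 8.71), KLHL4 (8.32 and 10.66) and IRF9, a partner of the STAT proteins in interferon signalling (6.70 and 8.82), were among the 18. TP53INP1 turned to -0.013 with values raised to the limit of each array. That turn was set by the limits, since its mimic value lay between 7.99 and 8.72.

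Genes of DNA replication were lower as a group. Before each S phase the origin recognition complex loads the MCM helicase, which CDC45 and the GINS complex turn on, and PCNA, loaded by the RFC complex, holds the polymerases on the template. All 49 measured genes of this list were kept. Their median difference was -0.85, against 0.02 over all genes, and 45 of 49 differences were negative. At least 2-fold lower were 18 (36.7%, against 4.12% of all genes) and at least 2-fold higher 0. RFC3, a subunit of the clamp loader, stood at 12.48 and 10.21 (-2.26), with both values above the limit. FEN1, the nuclease that trims Okazaki fragments, stood at 12.47 and 10.91 (-1.57). MCM10, which helps to open the origin, stood at 7.91 and 5.77 (-2.14) and LIG1, the ligase that joins the fragments, at 6.67 and 5.15 (-1.52), all of these under the limit. POLA2, of the priming polymerase, stood at 8.65 and 7.14 (-1.51), also under it. Over the 42 members above the limit on both arrays 15 were at least 2-fold lower and the median was -0.82, so the dim members did not set the group's value. The positive differences belonged to RPA1, ORC3, ORC4 and RFC1, the largest of them 0.40.

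**Figure D3:**
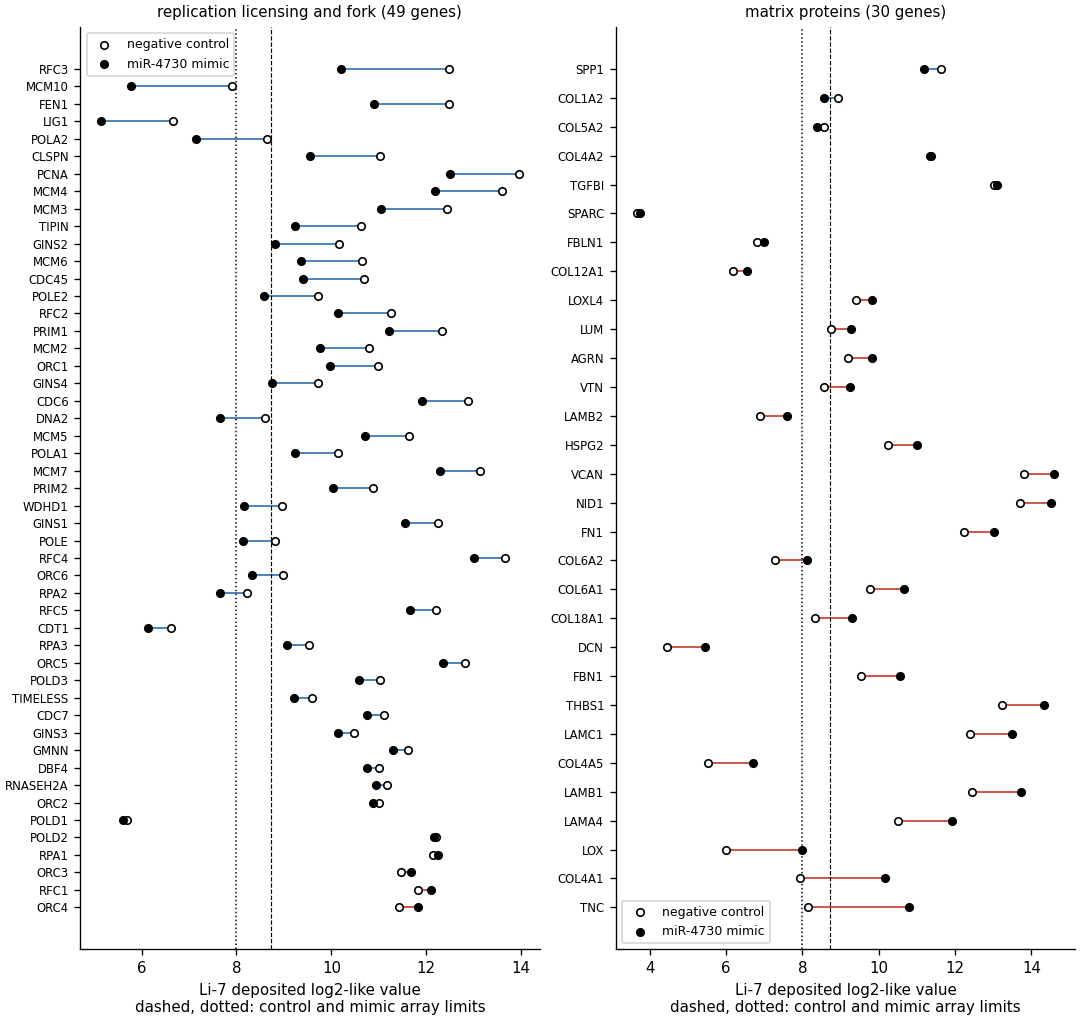
Each row is 1 kept gene of the replication list (left, 49 genes) or of the matrix protein list (right, 30 genes), with its value on the Li-7 control array (open circle) and on the mimic array (filled circle), as deposited log2-like values, and a blue line for a lower and a red line for a higher value with the mimic. Dashed and dotted vertical lines are the limits of the control and the mimic array, and 45 replication genes lie to the left with the mimic while 27 matrix genes lie to the right.

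The promoters of these genes were read for the letters of the E2F site, since E2F factors drive replication genes at the start of S phase. RefSeq promoters (GRCh38.p14, 250 bases before to 50 after the gene start) were found for 10168 of the 12381 genes kept. The letters TTTCCCGC or TTTGGCGC, on either strand, were in 16 of 42 replication promoters (38.1%), in 3.58% of all kept genes with a promoter and in 2.31% of the 27305 promoters in the table. Of the 405 genes with a promoter that were at least 2-fold lower, 24 held them (5.93%), and of those at least 2-fold higher 2.20%. Of the 18 replication genes at least 2-fold lower, 17 had a promoter and 8 of these held the letters. These 8 are among the 24, so the 5.93% counts the replication genes again. The 5 of the 8 whose match lies at least 50 bases before the gene start are shown with 40 bases around it. They read 5' to 3' in the direction of the gene, with the matched letters in capitals, and these 5 were chosen for their letters.
RFC3 (chr13:33818078-33818117, plus strand): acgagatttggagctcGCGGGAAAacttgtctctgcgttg
PCNA (chr20:5126658-5126697, minus strand): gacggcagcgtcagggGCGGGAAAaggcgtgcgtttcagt
LIG1 (chr19:48170435-48170474, minus strand): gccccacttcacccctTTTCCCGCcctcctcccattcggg
MCM3 (chr6:52284893-52284932, minus strand): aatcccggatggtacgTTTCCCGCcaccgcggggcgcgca
MCM6 (chr2:135876572-135876611, minus strand): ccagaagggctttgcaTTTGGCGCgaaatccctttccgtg
PCNA, the sliding clamp, stood at 13.95 and 12.51, MCM3 at 12.44 and 11.04 and MCM6 at 10.65 and 9.36, differences of -1.44, -1.40 and -1.29. These 3 are named for their promoters, after their values were seen. A match is a string of letters and not a bound site, and replication genes are known for such sites. Letters of NF-Y, AP-1, CRE, TEAD, SP/KLF, TATA, E-box and ETS sites were searched too. In promoters of genes at least 2-fold higher, TEAD letters were in 1.65% and AP-1 letters in 4.67%, against 2.21% and 4.66% of all kept. There, ETS letters were in 8.24% against 18.2%, and TATA letters in 10.2% against 6.77%.

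The factors themselves and the nucleotide supply were lower too, with fewer genes past 2-fold. E2F8, a repressive E2F made in S phase, stood at 11.65 and 9.49 (-2.16), and E2F1, the main activator, at 9.38 and 8.001 (-1.38), just above the limit with the mimic. RBL1, the pocket protein p107, stood at 12.28 and 11.05 (-1.23). These were the 3 of 13 E2F and RB genes at least 2-fold lower (23.1%), with a list median of -0.30. CCNE2, a cyclin of the G1/S transition, stood at 10.78 and 9.29 (-1.49), while the inhibitors CDKN1A, p21, stood at 8.94 and 9.95 (1.01) and CDKN1B, p27, at 10.40 and 11.38 (0.98). Of 21 genes of nucleotide supply 3 were at least 2-fold lower (14.3%, against 4.12% of all genes). They were TK1, thymidine kinase (12.96 and 11.79), DUT, which removes dUTP (12.92 and 11.75), and PFAS, of purine synthesis (11.82 and 10.78).

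Mitosis genes stood apart from replication genes in size. All 44 were above the limit on both arrays, 38 of 44 differences were negative and the median was -0.32. At least 2-fold lower were 2 (4.55%, near the 4.12% of all genes) and higher 0. The lower genes were FOXM1, the transcription factor of the G2 programme (13.44 and 12.24), and SPC25, of the kinetochore (9.66 and 8.64). CDK1, the mitotic kinase, stood at 13.38 and 12.42 (-0.96). CDC25B, the phosphatase that activates it, was higher, at 12.01 and 12.98 (0.97). The CCAAT box of NF-Y, searched on both strands, was in 75.7% of 37 mitosis promoters and 57.1% of 42 replication promoters, against 37.0% of kept genes with a promoter.

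Repair genes and histones, which are used in S phase as well, were lower. Of 38 kept genes of DNA repair and the checkpoint 11 were at least 2-fold lower (28.9%, against 4.12% of all genes) and 0 higher, with a median of -0.45. BRCA1, of homologous recombination, stood at 10.19 and 8.40 (-1.79) and BRIP1, its helicase partner, at 10.09 and 8.34 (-1.75). MND1, which pairs with HOP2 in strand exchange, stood at 9.30 and 7.43 (-1.87) and RAD54L at 9.50 and 7.76 (-1.75), both ending under the limit, and FANCG, of the Fanconi core complex, was under it on both arrays (7.16 and 5.31). Over the 25 members above the limit on both arrays 5 were at least 2-fold lower. Of 45 kept replication-dependent histone genes 43 differences were negative, 8 were at least 2-fold lower (17.8%) and the median was -0.65. Beside H2BC14 these included H3C11 (12.71 and 11.41), and H1-3, a linker histone (9.40 and 7.27), and H3C1 (9.08 and 7.36), both ending under the limit. Over the 32 histone genes above the limit on both arrays 4 were at least 2-fold lower, with a median of -0.61. Histone genes have close copies, so a value may hold signal of several.

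Of 36 genes of the integrated stress response and amino acid supply 10 were at least 2-fold lower (27.8%, against 4.12% of all genes) and 1 higher, with a median of -0.45. Beside ASNS, NUPR1, a stress-induced chromatin protein, stood at 10.13 and 8.59 (-1.54), PYCR1, of proline synthesis, at 10.29 and 8.90 (-1.39), PSPH, of serine synthesis, at 8.99 and 7.64 (-1.35), and CHAC1, which breaks down glutathione, at 7.57 and 5.56 (-2.01), under the limit on both. Of 23 genes of protein folding in the endoplasmic reticulum 18 differences were negative and the median was -0.36, while 1 was at least 2-fold lower, a share (4.35%) near that of all genes. PDIA4, a disulfide isomerase, stood at 12.23 and 11.27, and XBP1, a transcription factor of the unfolded protein response, at 11.30 and 10.46. Among 29 heat shock genes 3 were at least 2-fold lower (10.3%), HSPB1, HSPA1A (12.58 and 10.99) and HSPE1, the mitochondrial co-chaperonin (15.02 and 13.55), with a median of -0.19. Of 16 aminoacyl-tRNA synthetases AARS1 (13.23 and 11.97) and YARS1 (11.97 and 10.75) were at least 2-fold lower (12.5%).

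Large groups of constitutive genes lay near the middle of all genes. Of 28 proteasome genes 0 were past 2-fold and the median was 0.04, and of 15 translation factors 0 were past 2-fold and the median was -0.18. Of 32 kept ribosomal protein genes 2 were at least 2-fold lower (6.25%, against 4.12% of all genes). They were RPS28 (15.90 and 13.48) and RPS15A (15.82 and 13.93), and the other 30 lay between -0.37 and 0.24. The median of the 32 was -0.04, with a sign that turned to 0.01 after cyclic loess. Both genes have processed copies in the genome. Of 36 respiratory chain genes ATP5F1D and COX5A (12.94 and 11.78) were at least 2-fold lower, a share of 5.56%. Commonly used reference genes were not all level, since ACTB stood at 13.55 and 11.96 (-1.58) and TFRC at 13.93 and 12.66 (-1.27), in the same direction under each normalization tried, while the other 10 of 12 were within 2-fold.

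YAP and TEAD factors carry the signal of a stretched cytoskeleton into the nucleus, and integrins link that cytoskeleton to matrix. Of 19 kept YAP and TEAD target genes 7 were at least 2-fold higher (36.8%, against 3.72% of all genes) and 0 lower, with a median of 0.83, or 0.51 when no filter on low values was used. Beside NT5E they included CCN1, a matricellular protein (10.32 and 11.49), and PTPN14, a phosphatase that binds YAP (9.01 and 10.23). The factors stood on both sides. TEAD4 stood at 8.60 and 6.39 (-2.21), under the limit on both arrays, and TEAD2 at 9.45 and 8.69, while YAP1 stood at 11.63 and 12.28 and WWTR1, TAZ, at 10.33 and 10.89. The median of 18 TEAD and Hippo core genes was -0.04. Letters of the TEAD site, ACATTCC, were in 1 of 14 promoters of the target list (7.14%), against 2.21% of all kept.

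Of 30 kept matrix protein genes 27 differences were positive, 9 were at least 2-fold higher (30%, against 3.72% of all genes) and 0 lower, with a median of 0.79. COL4A1, a basement membrane collagen, stood at 7.94 and 10.15 (2.21), from under to above the limit, and LOX, which crosslinks collagen, at 6.01 and 7.98 (1.97), under the limit on both arrays. LAMA4, a laminin chain, stood at 10.51 and 11.92 (1.41), LAMB1, another, at 12.45 and 13.72 (1.27) and THBS1, thrombospondin, which is in the YAP list too, at 13.22 and 14.33 (1.11). These 3 were above the limit on both arrays, as were 17 members in all, of which 5 were at least 2-fold higher with a median of 0.78. Of 28 integrin and focal adhesion genes 6 were at least 2-fold higher (21.4%) and 0 lower, with a median of 0.41. ITGAV, the alpha V chain, stood at 12.46 and 13.94 (1.48), FERMT2, kindlin-2, which activates integrins, at 10.63 and 12.02 (1.39), and ILK, a scaffold at the integrin tail, at 12.002 and 13.38 (1.38). ITGB6, the partner of alpha V in epithelia, was under the limit on both arrays (5.50 and 6.80).

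Of 25 genes of the urokinase system and matrix proteases 3 were at least 2-fold higher (12%, against 3.72% of all genes) and 0 lower, with a median of 0.47. Of these genes 11 were above the limit on both arrays and 12 on neither. Among the 11 only PLAU was at least 2-fold higher. PLAUR, the receptor of urokinase, stood at 7.13 and 8.38 (1.26), from under the limit, and its difference turned to -0.34 when values were raised to the limit of each array. The control array has the higher limit, so a gene under it whose mimic value lies between the limits must turn in that setting. Of 22 semaphorin, plexin and neuropilin genes 5 were at least 2-fold higher (22.7%) and 0 lower, with a median of 0.51, or 0.14 with no filter on low values. SEMA3C, a secreted semaphorin, stood at 13.50 and 15.05 (1.55), SEMA3E at 8.94 and 10.63 (1.69), SEMA4B at 10.65 and 12.03 (1.38) and NRP2, a co-receptor of the secreted class, at 11.58 and 12.67 (1.08), all above the limit on both arrays. SEMA7A, anchored in the membrane, stood at 6.09 and 8.13 (2.03), from under the limit, and turned to -0.60 in the same setting. Of 44 actin and contractile genes 5 were at least 2-fold higher (11.4%) and 2 lower (4.55%, near the 4.12% of all genes). Over the 37 members above the limit on both arrays only 1 was at least 2-fold higher and 2 lower. PALMD, palmdelphin, stood at 6.99 and 8.92 (1.93), and the lower pair was CNN2 and ACTB.

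Growth factor and inflammatory genes were mixed or higher. JUN, of the AP-1 factors, stood at 8.82 and 10.37 (1.55), JUNB at 5.82 and 7.33 (1.52), under the limit, and FOSL1 at 14.07 and 14.90 (0.83), with a median of 0.52 over 11 AP-1 genes, of which 8 were above the limit on neither array and 3 on both. KLF11 (8.15 and 10.00), KLF10 (a difference of 1.40) and KLF6 (12.65 and 13.81), early response factors, were at least 2-fold higher, whereas SRF, the factor of actin genes, stood at 8.78 and 7.38 (-1.40). EREG, the EGF-like ligand epiregulin, stood at 8.44 and 9.95 (1.51) and its receptor EGFR at 10.66 and 11.72 (1.05). Of 33 TGF-beta and BMP genes 4 were at least 2-fold higher (12.1%, against 3.72% of all genes) and 5 lower (15.2%, against 4.12%). Over the 20 members above the limit on both arrays 4 were at least 2-fold higher and only 1 lower. SMAD3, a signal carrier, stood at 12.70 and 14.02 (1.32) and PMEPA1, an induced inhibitor of the pathway, at 9.87 and 11.41 (1.54), while BMP4, a ligand, stood at 16.19 and 15.11 (-1.08) and FST, follistatin, at 7.33 and 5.75 (-1.58). Of 30 NF-kB, cytokine and chemokine genes 5 were at least 2-fold higher (16.7%) and 0 lower. IL32, an inflammatory cytokine, stood at 11.29 and 13.05 (1.76), NFKBIA, the inhibitor that NF-kB itself induces, at 10.78 and 12.05 (1.27) and ICAM1, an adhesion receptor for leukocytes, at 10.62 and 11.74 (1.12).

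Interferon genes, which double-stranded RNA can induce, had a median of 0.00 over 34 genes. At least 2-fold higher were 2 and lower 2 (5.88% each, against 3.72% and 4.12% of all genes). Over the 16 members above the limit on both arrays 0 were at least 2-fold higher and 1 lower. Beside IRF9 the higher one was GBP1, a guanylate-binding protein (7.99 and 9.27). The lower pair was OAS1, a sensor of double-stranded RNA (10.22 and 9.17), and IFIT1 (8.64 and 7.23, under the limit on both arrays). TAPBP, tapasin, which loads peptides on HLA class I, stood at 11.72 and 9.47 (-2.24), while HLA-C stood at 12.10 and 12.88 and B2M, the class I light chain, at 16.02 and 16.43.

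The microRNA machinery itself was uneven. DROSHA, which cuts primary microRNA transcripts in the nucleus, stood at 12.02 and 10.37 (-1.65). DICER1, which cuts their precursors in the cytoplasm, stood at 9.12 and 10.82 (1.70), TNRC6A, the GW182 protein that links Argonaute to messenger RNA decay, at 11.62 and 12.90 (1.28) and AGO2, the Argonaute that can slice, at 11.43 and 12.41 (0.98). Of 25 genes of this list 21 differences were positive and the median was 0.33.

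Liver lists differed from each other in direction, and many of their genes were dim. Of 30 kept genes of plasma proteins and lipoproteins 5 were at least 2-fold higher (16.7%, against 3.72% of all genes) and 0 lower, with a median of 0.12, while 3 were above the limit on both arrays and 21 on neither. Of 17 liver transcription factors 15 differences were positive, 2 were at least 2-fold higher (11.8%) and 0 lower, and the median was 0.36. Above the limit on both arrays were 7 of the 17, with 1 of these at least 2-fold higher, and 7 were above it on neither. SERPINA1, given above, turned to -0.32 with values raised to the limit of each array, a turn set by the higher limit of the control array. APOA4 stood at 7.77 and 9.19, from under to above the limit, and AMBP, the precursor of bikunin, at 12.09 and 13.16. Of 20 genes of the urea cycle, gluconeogenesis and amino acid breakdown 3 were at least 2-fold lower (15%, against 4.12%) and 0 higher, FAH, the last enzyme of tyrosine breakdown (10.48 and 8.64), ASS1, of the urea cycle (11.34 and 9.65), and FBP1, of gluconeogenesis (10.16 and 9.14). FASN, fatty acid synthase, which uses the citrate that SLC25A1 exports, stood at 11.995 and 10.41 (-1.58). In the oncofetal and progenitor list IGF2, a fetal growth factor, stood at 12.27 and 13.50 (1.23), and its messenger's binding proteins IGF2BP1 at 9.77 and 10.98 (1.21) and IGF2BP2 at 11.01 and 12.21 (1.20), while PEG10, an imprinted gene of retroviral origin, stood at 9.74 and 8.04 (-1.70). Among 30 Wnt genes 4 were at least 2-fold lower (13.3%) and 1 higher (3.33%), with a median of -0.07. Over the 12 members above the limit on both arrays 2 were at least 2-fold lower, 0 higher and the median was 0.13, while 14 were above it on neither. WNT7B, a ligand, stood at 9.01 and 6.87 (-2.14), ending under the limit. LGR5, a stem cell receptor and Wnt target, stood at 10.34 and 8.87 (-1.47) and AXIN2, the classical feedback target, at 5.76 and 4.24 (-1.52), under the limit on both arrays.

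**Figure D4:**
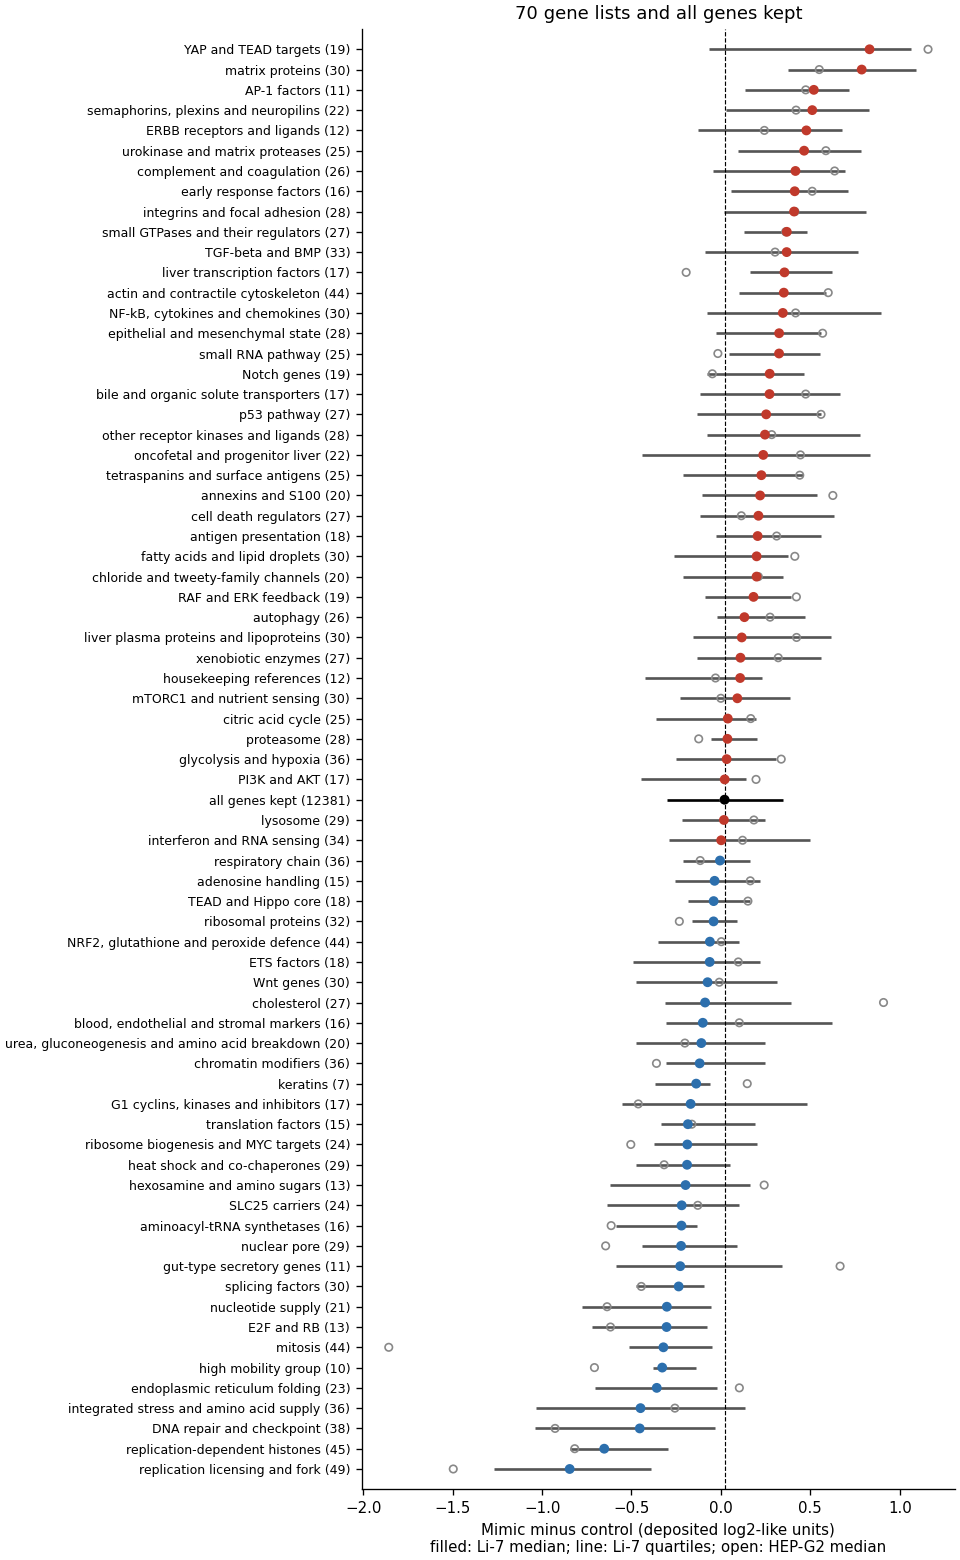
Each row is 1 of 70 gene lists or all 12381 genes kept, with the number of genes kept in brackets. The filled point is the median and the line the quartiles of the Li-7 differences, the open point is the median in HEP-G2, all in deposited log2-like units, and the Li-7 medians run from -0.85 (replication) to 0.83 (YAP and TEAD targets) around 0.02 for all genes (dashed line).

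HEP-G2 gave a second pair of arrays with controls of its own. There, 714 genes were higher (5.77%) and 777 lower (6.28%) by 2-fold or more with the mimic. Of the 461 genes higher in Li-7, 382 had a positive difference in HEP-G2 (82.9%, against 51.2% of all genes kept) and 128 were at least 2-fold higher, which is 27.8% of the Li-7 genes and 17.9% of the HEP-G2 genes. Of the 510 lower in Li-7, 417 had a negative difference in HEP-G2 (81.8%, against 48.8%) and 218 were at least 2-fold lower, 42.7% of the Li-7 genes and 28.1% of the HEP-G2 genes. Of the 25 lowest Li-7 genes 21 were lower by 2-fold or more in HEP-G2 too, and of the 25 highest 10 were higher by as much. Across the 12381 genes the differences of the lines had a Pearson correlation of 0.47 and a Spearman correlation of 0.44, a description over genes that share arrays.

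Some differences were large in Li-7 alone by value, although with 1 array a group no test of a difference between the lines was possible. GPX2 stood at 14.61 and 14.85 in HEP-G2, where it was bright on both arrays, and GAL at 4.76 and 5.20, TNC at 3.50 and 3.33 and ETS1 at 4.83 and 5.15, all dim there. PLAU stood at 7.83 and 8.46 and HMGA2 at 8.45 and 8.35. Group medians differed as well. The replication list had a median of -1.50 in HEP-G2 against -0.85 in Li-7 and the mitosis list -1.86 against -0.32, while endoplasmic reticulum folding had 0.10 against -0.36, cholesterol genes 0.91 against -0.09 and matrix proteins 0.55 against 0.79.

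**Figure D5:**
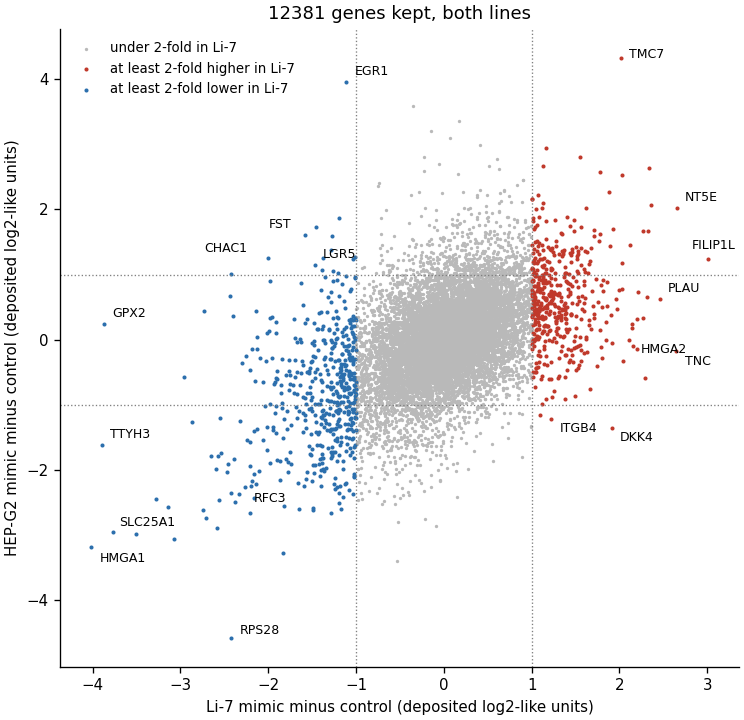
Each point is 1 of 12381 genes kept, with its difference, mimic minus control, in Li-7 (x axis) and in HEP-G2 (y axis), in deposited log2-like units. Red and blue points are at least 2-fold higher or lower in Li-7, dotted lines mark 2-fold, and most coloured points lie on the same side in HEP-G2, while GPX2 (-3.87 in Li-7 and 0.24 in HEP-G2) does not.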

How the data were processed

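Values of the probe sets, log2-like in scale, were deposited as 1 table by the authors for 4 Affymetrix arrays, 1 per line and treatment, from biotin-labelled RNA per the labels' protocols. Expression Console (Affymetrix) and Transcriptome Analysis Console were used, per the submitters' processing notes, which give no version. Normalization, log base and genome build were not given in the sources used here, and values were read as log2, so folds are on the deposited scale. Of 24351 probe sets, 17709 had 1 gene name in the platform annotation and 0 had several. Of the rest, 3739 were unnamed here and others were controls. All 17709 gene identifiers matched RefSeq (GRCh38.p14), whose symbols were used. For the 20 genes with several probe sets the one with the highest mean stood.

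Differences are mimic minus control of the values as deposited, counted at 2-fold. Because 1 array a group leaves no spread, no test was run, and the number of arrays limits precision. Groups came from the sample titles. The members and the 70 gene lists (2101 genes, 1864 measured, 1688 kept) were chosen with earlier results of these data known. Named genes were HMGA1, HMGA2, the 25 highest and 25 lowest differences, the 15 highest and 15 lowest among genes above the limit on both Li-7 arrays, for each list up to 5 members of largest absolute difference, and the cell type markers; others, among them CD68 and LUM, were named after their values were seen. The medians of all 70 lists are in the plot of list medians. The counting was run on Li-7 control values with known differences put in. This checks its arithmetic only and says nothing about false differences between single arrays. Alternatives used limma 3.58.1 in R 4.3.3 for quantile normalization and cyclic loess, and median centring, other filters, floors and fold limits in Python 3.11.15. Sequences came from RefSeq tables.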

Additional observations from a re-analysis of the deposited data

Results flagged for a closer look

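Among the genes named by the rule, 8 were past 2-fold in opposite directions in the 2 lines. These differences between the lines were not tested, since each rests on 4 single arrays. Lower in Li-7 and higher in HEP-G2 were CHAC1, a glutathione-degrading enzyme (-2.01 in Li-7 and 1.25 in HEP-G2), FST, follistatin (-1.58 and 1.61), LGR5 (-1.47 and 1.15), MICB, a stress ligand of natural killer cells (-1.39 and 1.07), EGR1, an immediate early transcription factor (-1.11 and 3.96), and SULT1C2, a sulfotransferase (-1.04 and 1.24). Higher in Li-7 and lower in HEP-G2 were ITGB4, the integrin of hemidesmosomes (1.22 and -1.22), and DKK4, a secreted Wnt inhibitor (1.91 and -1.35). In Li-7, CHAC1, FST, EGR1 and DKK4 were under the negative control limit on both arrays, while LGR5 (10.34 and 8.87), MICB (10.57 and 9.18), SULT1C2 (11.59 and 10.55) and ITGB4 (12.10 and 13.33) were above it on both.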

How the results depend on the processing

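No paired analysis was possible because each group had 1 array. The counts of genes at least 2-fold higher and lower, 461 and 510 as deposited, were within 1.5 times of these after quantile normalization (473 and 510), median centring (413 and 557), cyclic loess (487 and 486), no filter (519 and 559), a filter on the Li-7 arrays alone (463 and 520) and averaged probe sets of a gene (461 and 510). Fewer genes remained in stricter settings, which left 307 higher at the 50th percentile, 260 and 326 with a mean above the negative control limit, and 220 and 336 with values raised to each array's limit. Settings added after seeing the data left 193 and 299 with both Li-7 values above the limit, and 220 and 272 with both arrays raised to the higher limit. At 1.5-fold they were 1592 and 1520, and at 4-fold 24 and 61, where 71.8% were lower against 52.5% at 2-fold. The 3 normalizations moved the median gene by at most 0.03 and HMGA1 to between -4.05 and -3.98, and turned no named gene. Raising values to each array's limit, which itself differs between the arrays, turned 13 named genes that are dim on the control array. These were ABLIM3 (-0.19), APOE (-0.29), CREB3L3 (-0.10), CRIP2 (-0.56), CYP1A1 (-0.16), PDGFB (-0.50), PLAUR (-0.34), PPP1R3B (-0.073), RFNG (-0.075), SEMA7A (-0.60), SERPINA1 (-0.32), TP53INP1 (-0.013) and TYRO3 (-0.15). Their mimic values lay between the limits, 7.99 and 8.72, so the turn was set by the limits. In that setting 12 more of 298 named genes came within 2-fold. With the common floor 0 of 280 turned and 21 came within 2-fold, among them GNPDA1, E2F1, MND1, RAD54L, WNT7B and IRF9. List medians moved by more than 0.25 in 5 of 70 lists with each array's own floor and in 6 lists with the common one, the AP-1 list in both, and that of the xenobiotic enzymes turned negative with the former. Without a filter 3 moved. Signal over background limits all genes under the limit, and with 1 array a group no spread between cultures was measured.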

Other observations

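Of 27 kept p53 pathway genes 3 were at least 2-fold higher (11.1%, against 3.72% of all genes) and 1 lower (3.70%, against 4.12%), with a median of 0.25. The lower one was MDM2, the ligase that degrades p53, at 11.83 on the control and 10.21 on the mimic array (-1.62). PMAIP1, the killer protein NOXA, stood at 9.20 and 10.71 (1.51). Among 27 regulators of cell death, where PMAIP1 is listed too, 2 were at least 2-fold higher (7.41%) and 0 lower. BIRC2, an inhibitor of apoptosis, stood at 10.67 and 12.12 (1.45) and MCL1, a survival protein of the BCL2 family, at 13.72 and 14.61 (0.89). PMAIP1 and BIRC2, with opposite known roles, were thus both higher.

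Metabolic lists had medians near that of all genes and single members far from it. INSIG2, which holds the sterol sensor back, stood at 9.27 and 10.71 (1.44) and EBP, a late enzyme of cholesterol synthesis, at 13.64 and 12.48 (-1.16). They were the only cholesterol genes of 27 past 2-fold, 3.7% in each direction, near the 3.72% higher and 4.12% lower of all genes. PLIN2, the coat protein of lipid droplets, stood at 11.81 and 12.98 (1.18). DLD, the shared dehydrogenase subunit of the pyruvate and oxoglutarate complexes, stood at 12.56 and 11.20 (-1.36), and TXNIP, a glucose-induced inhibitor of thioredoxin, at 8.46 and 9.96, from under the limit. Upstream of mTORC1, SAMTOR, a sensor of S-adenosylmethionine, stood at 7.78 and 9.39 (1.62), and NPRL3, of the GATOR1 complex that restrains it, at 8.05 and 5.39 (-2.65), under the limit on both arrays. AKT1S1, the inhibitory subunit PRAS40, stood at 10.06 and 8.28 (-1.78).

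At the cell surface CD82, a tetraspanin known as a suppressor of metastasis, stood at 7.70 and 9.73 (2.03) and CD47, the signal that restrains macrophages, at 12.37 and 13.41 (1.04). CD81, another tetraspanin, stood at 12.62 and 11.26 (-1.36) and TSPAN1 at 12.40 and 11.05 (-1.35). Of 26 kept complement and coagulation genes 19 differences were positive, with a median of 0.42. At least 2-fold higher were 4 (15.4%, against 3.72% of all genes) and lower 2 (7.69%, against 4.12%). Only 2 of the 26 were above the limit on both arrays, and both were at least 2-fold higher. They were CFB, factor B of the alternative pathway (9.06 and 10.52), and F5, coagulation factor V (8.73 and 10.09). In the nucleus SF3A1, a splicing factor of the U2 particle, stood at 12.54 and 10.75 (-1.79), and FBL, the methyltransferase of ribosomal RNA, at 13.77 and 12.52 (-1.25). SF3A1 was the 1 of 30 splicing genes past 2-fold, a share (3.33%) near the 4.12% lower of all genes.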
